A study of Homo sapiens with 16 samples.

Results

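The 10 genes described here are SMAD6 with 9 other feedback and response genes of the BMP and TGF-beta pathways, namely SMAD7, SMAD3, SKI, SKIL, TGIF1, ID1, ID2, ID3 and VASN. They were taken by symbol from the 60252 gene rows of the count table, and all 10 passed the low-count filter that left 23830 genes for testing. SMAD6 and VASN were chosen by their measured AT7519 responses (log2 fold changes) in OSMI2 cells against Scr cells of these same libraries, so for them no test is given in any contrast that holds a Scr or OSMI2 sample. For the other 8 genes the difference between OSMI2 and Scr in the AT7519 response is likewise given without a test.

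LNCaP is a human prostate cancer line of luminal epithelial character, and all results come from this 1 line. RNA was sequenced in 16 libraries, 2 for each of 8 groups. Cells of the siOGT1 and siOGT2 arms carried 1 of 2 siRNAs against OGT for 48 hours, those of the OSMI2 arm received a small-molecule inhibitor of OGT, and those of the Scr arm a scrambled siRNA. OGT is the enzyme that puts O-GlcNAc on nuclear and cytoplasmic proteins. In each arm, cells were treated for 4 hours with 0.5 µM AT7519, an inhibitor of several cyclin-dependent kinases including CDK9, or with DMSO, its vehicle. How much OSMI2 was given and for how long, and whether scrambled siRNA went with it, is not stated in the labels. The labels also do not tell whether replicates are separate cultures, and p-values then rest on a spread between libraries that may be technical.

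Ligands of the TGF-beta and BMP families bind receptor kinases that phosphorylate receptor-activated SMADs, which join SMAD4 and act on genes in the nucleus. The pathway restrains itself through its own products: SMAD6 and SMAD7 are inhibitory SMADs that block receptors and receptor-activated SMADs, and SKI, SKIL and TGIF1 are corepressors that silence SMAD-bound genes. In the prostate, TGF-beta is known as a brake on epithelial growth.

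The libraries held 40216911 to 147019364 counts. Of the luminal prostate markers, KLK3 stood at 727 to 1658 CPM (counts scaled to a common library size) and KRT8 at 318 to 533 CPM over the 16 libraries. The 5 leukocyte markers summed to at most 0.260 CPM with AT7519 and 0.225 CPM with DMSO. The 6 stromal markers summed to 28.3 to 59.8 CPM with AT7519 and 26.0 to 42.3 CPM with DMSO, with COL1A1 at 10.8 to 40.8 CPM, VIM at 6.004 to 16.9 CPM and COL3A1 at 3.22 to 10.4 CPM, COL1A2 at 0 in 15 libraries and DCN at 0 in 10, and their part in the results was not tested. In DMSO, OGT stood at 20.7 and 14.6 CPM with siOGT1, 36.0 and 29.8 CPM with siOGT2 and 349 and 336 CPM with OSMI2, against 274 and 263 CPM with Scr. With AT7519 it stood at 11.0 and 11.0 CPM with siOGT1, 29.3 and 33.8 CPM with siOGT2 and 422 and 408 CPM with OSMI2, against 256 and 314 CPM with Scr. OGT RNA was thus low in all 8 siOGT libraries and not in the OSMI2 libraries, where the protein and not its RNA is the target.

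Per kilobase of exon, the 10 genes covered a wide range in cells of the Scr arm given DMSO. The exon length joins all annotated transcripts of a gene, 23 for TGIF1 (8222 bases) and 1 for VASN (2806 bases). The order between genes thus depends partly on the annotation. SKI was highest at 13.9 CPM per kb, followed by ID3 at 6.25, VASN at 4.65, TGIF1 at 4.21, ID2 at 3.90 and SKIL at 3.83 CPM per kb. SMAD6 had 1.76, SMAD7 1.47, ID1 1.45 and SMAD3 0.919 CPM per kb. The replicates of neighbours in this order overlapped in places, as for TGIF1, ID2 and SKIL, and no test was made between genes. With AT7519 the order in Scr changed, with ID3 highest at 18.4 CPM per kb and SKI next at 10.5 CPM per kb. ID1 at 2.49 then lay above SKIL at 2.01, TGIF1 at 1.55 and ID2 at 1.42 CPM per kb. SMAD6 at 0.484 lay below SMAD7 at 0.763 CPM per kb.

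SMAD6 and VASN, the 2 genes picked for their response, are shown with the stretch before their RefSeq start site (GRCh38.p14), since SMAD6 is itself a known BMP target. The SMAD6 window is chr15:66701986-66702185 and the VASN window is chr16:4371598-4371797, both on the plus strand, and each covers the 200 bases that end 51 bases before the start. Capitals mark the 4-base core that SMAD3 and SMAD4 bind (AGAC, or GTCT on the other strand). They also mark a GC-rich BMP-type element (GGAGCC, or GGCTCC on the other strand).
SMAD6: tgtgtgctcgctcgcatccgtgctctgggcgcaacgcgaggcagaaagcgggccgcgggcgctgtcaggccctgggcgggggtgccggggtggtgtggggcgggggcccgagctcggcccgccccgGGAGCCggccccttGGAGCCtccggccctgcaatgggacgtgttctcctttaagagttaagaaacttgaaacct
VASN: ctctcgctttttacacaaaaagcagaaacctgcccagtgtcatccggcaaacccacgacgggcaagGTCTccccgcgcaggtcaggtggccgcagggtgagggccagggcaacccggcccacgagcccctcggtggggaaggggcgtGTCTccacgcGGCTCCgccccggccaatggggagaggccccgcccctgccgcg
The SMAD6 window held 0 copies of the 4-base core and 2 of the GC-rich element, and the VASN window held 2 and 1. GGCGCC and GTCTAGAC were also searched for and had 0 copies in both windows, where 12.7% and 0.145% of all windows held them. Of 35116 RefSeq promoter windows of this length, 70.6% held the 4-base core and 24.9% the GC-rich element, so either is common. These matches describe letters and are no evidence of binding.

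Relative to the rest of each library, AT7519 lowered most of these genes in every arm. The scaling factors of the libraries were 0.864 to 0.952 with AT7519 and 1.05 to 1.13 with DMSO. A change in total RNA per cell cannot be read from scaled counts, so falls and rises here and below are relative. The shares over all genes depend on the scaling too. In siOGT1 cells, 8 of 10 genes fell, 0 rose and 2 did not pass the test, where 22% of all tested genes fell and 19.4% rose. In siOGT2 cells, 8 of 10 fell and 1 rose, where 22.8% of all genes fell and 22.2% rose. Of the 8 genes tested in OSMI2 cells, 6 fell and 1 rose, where 23.6% of all genes fell and 23.6% rose. Of the same 8 in Scr cells, 6 fell and 1 rose, where 24.6% of all genes fell and 21.8% rose. A gene was counted at an edgeR quasi-likelihood p, adjusted over all tested genes by Benjamini-Hochberg, under 0.05. The median log2 change over all 10 genes was -1.14 in siOGT1, -0.89 in siOGT2, -1.04 in OSMI2 and -0.94 in Scr, beside -0.05, -0.03, 0.02 and -0.05 over all tested genes. The 4 comparisons share no library, but the 10 genes were chosen with their behaviour known. In RNA of whole cultures, fewer cells that express a gene and less RNA of it per cell cannot be told apart.

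**Figure D1:**
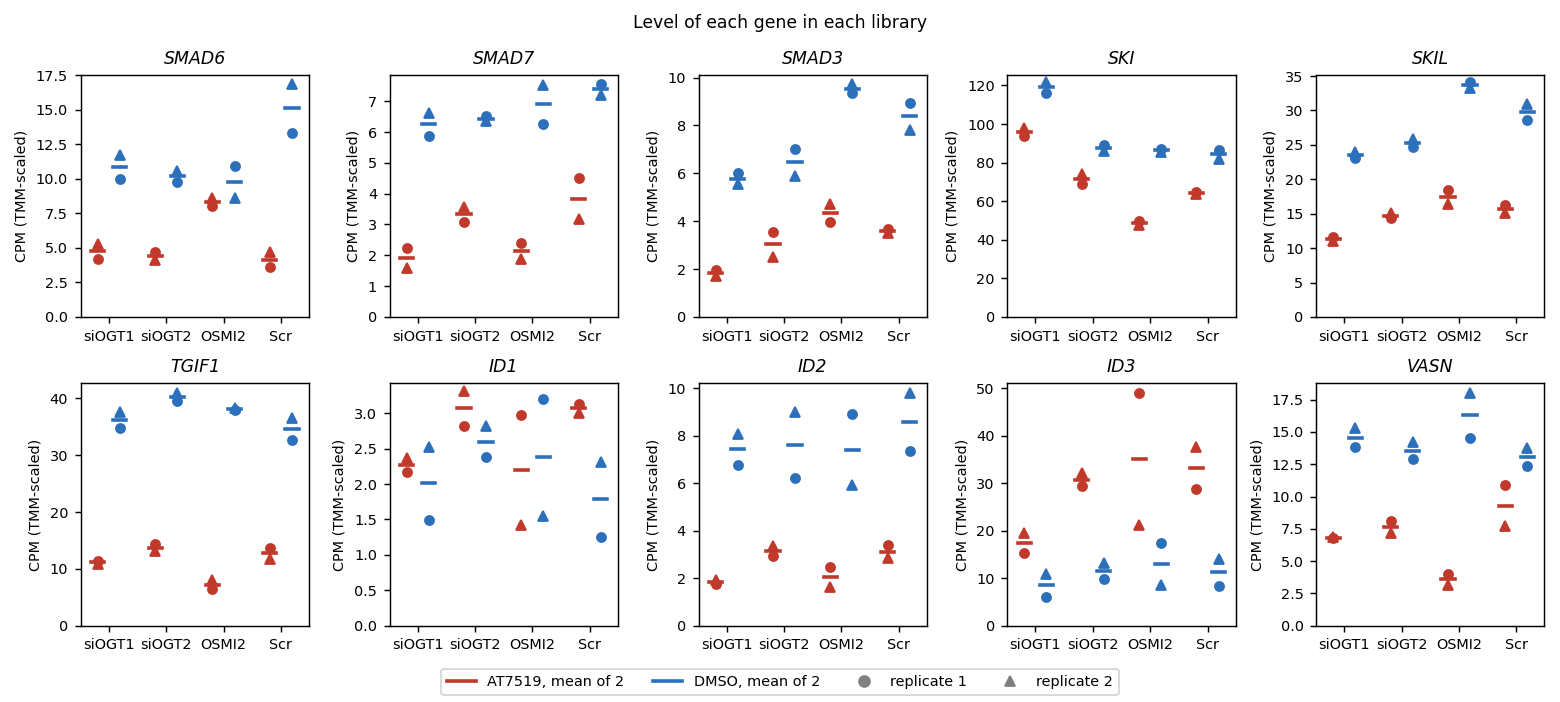
Level of each gene in CPM (vertical axes, starting at 0) in each of the 16 libraries, by arm (horizontal axes), with AT7519 in red left of DMSO in blue, circles for replicate 1, triangles for replicate 2 and bars for the mean of 2. SMAD6 stays near its DMSO level in OSMI2 cells given AT7519, where VASN is at its lowest, and ID3 is higher with AT7519 in every arm.

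SMAD6, the inhibitory SMAD that acts mainly on BMP signalling, fell in both siOGT arms. With siOGT1 it had 4.22 and 5.27 CPM under AT7519, against 9.997 and 11.7 CPM under DMSO, a 2.27-fold lower level (log2 -1.18 ± 0.17, SE; edgeR adjusted p = 1.6e-05). With siOGT2 it had 4.71 and 4.14 CPM under AT7519, against 9.79 and 10.6 CPM under DMSO, a 2.30-fold lower level (log2 -1.20 ± 0.18, SE; edgeR adjusted p = 1.5e-05). Neither arm had overlapping groups. In Scr cells SMAD6 had 3.58 and 4.70 CPM under AT7519, against 13.3 and 16.9 CPM under DMSO, 3.63-fold lower (log2 -1.86 ± 0.18, SE). In OSMI2 cells it had 8.003 and 8.63 CPM under AT7519, against 11.0 and 8.64 CPM under DMSO, a log2 difference of -0.24 ± 0.17 (SE). This value was -0.07 without OSMI2 DMSO replicate 1 and -0.40 without OSMI2 DMSO replicate 2. There the groups met, with the higher AT7519 library just under the lower DMSO library, and both AT7519 libraries lay above all 6 AT7519 libraries of the siRNA arms.

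The arms differed in SMAD6 on the DMSO side too. Scr had the 2 highest DMSO values of the 4 arms, and the log2 differences from Scr under DMSO were -0.48 with siOGT1, -0.57 with siOGT2 and -0.62 with OSMI2 (SE 0.17 each), with no overlap in any of the 3. The AT7519 response of SMAD6, as a log2 difference, was smaller than in Scr by 0.67 with siOGT1, 0.65 with siOGT2 and 1.62 with OSMI2 (SE 0.25 each). Under other scalings, tools and filters the OSMI2 value lay between 1.56 and 1.64. Leaving out each library in turn gave 1.37 to 1.80, the lowest without Scr AT7519 replicate 1 and the highest without OSMI2 DMSO replicate 1. The siOGT1 and siOGT2 values were 0.48 and 0.45 without Scr AT7519 replicate 1, and 0.89 and 0.86 without Scr AT7519 replicate 2. These differences are descriptions of the gene that was picked for them, and all 3 response differences subtract the same Scr response.

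VASN encodes a membrane protein whose shed extracellular part binds TGF-beta and limits its action, and its pattern across arms ran the other way. With siOGT1 VASN had 6.77 and 6.84 CPM under AT7519, against 13.8 and 15.3 CPM under DMSO (log2 -1.09 ± 0.16, SE; edgeR adjusted p = 1.8e-05). With siOGT2 it had 8.14 and 7.20 CPM under AT7519, against 12.9 and 14.2 CPM under DMSO (log2 -0.82 ± 0.16, SE; edgeR adjusted p = 0.00035). Both falls left the groups apart. In OSMI2 cells VASN had 4.03 and 3.18 CPM under AT7519, against 14.6 and 18.03 CPM under DMSO, 4.47-fold lower (log2 -2.16 ± 0.17, SE). In Scr cells it had 10.9 and 7.69 CPM under AT7519, against 12.3 and 13.8 CPM under DMSO, 1.41-fold lower (log2 -0.49 ± 0.16, SE). The OSMI2 libraries given AT7519 were the 2 lowest of all 16, and the Scr replicates given AT7519 lay far apart.

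Under DMSO the log2 difference of VASN from Scr was 0.16 with siOGT1, 0.05 with siOGT2 and 0.32 with OSMI2 (SE 0.16 each). Its AT7519 response differed from that in Scr by -0.60 with siOGT1, -0.33 with siOGT2 and -1.67 with OSMI2 (SE 0.23 each). The OSMI2 value was -1.72 to -1.64 under other scalings, tools and filters. It was -1.94 without Scr AT7519 replicate 2 and -1.47 without Scr AT7519 replicate 1, the range over single libraries. The same 2 libraries set the response in Scr, which was -0.25 without replicate 2 and -0.73 without replicate 1, and without replicate 1 the siOGT1 difference was -0.35 and the siOGT2 difference -0.09. VASN lies within CORO7, which runs on the opposite strand, and shares no exon with it. CORO7 had 3269 counts over the 16 libraries beside 12910 for VASN. Whether the counting used strand is not stated, so unspliced CORO7 reads over VASN cannot be told from its own.

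SMAD7, the inhibitory SMAD that blocks both TGF-beta and BMP receptors, fell in all 4 arms. It had 2.24 and 1.58 CPM under AT7519 with siOGT1, against 5.89 and 6.63 CPM under DMSO (log2 -1.72 ± 0.21, SE; edgeR adjusted p = 1.5e-06). In OSMI2 cells it had 2.41 and 1.90 CPM under AT7519, against 6.27 and 7.54 CPM under DMSO (log2 -1.67 ± 0.21, SE; edgeR adjusted p = 1.6e-06). Both arms had every AT7519 library below every DMSO library. With siOGT2 the values were 3.07 and 3.58 CPM under AT7519, against 6.51 and 6.35 CPM under DMSO (log2 -0.95 ± 0.20, SE; edgeR adjusted p = 0.00061). With Scr they were 4.51 and 3.17 CPM under AT7519, against 7.57 and 7.20 CPM under DMSO (log2 -0.95 ± 0.20, SE; edgeR adjusted p = 0.00049). The groups were apart here as well. Relative to Scr the response differed by -0.77 ± 0.28 (SE) with siOGT1, which did not pass (edgeR adjusted p = 0.62), and by -0.72 ± 0.29 (SE) with OSMI2, given without a test. That OSMI2 value was -0.997 without Scr AT7519 replicate 2 and -0.51 without replicate 1. In OSMI2 cells its difference from Scr thus had the sign of that of VASN and the opposite sign to that of SMAD6.

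SMAD3, the receptor-activated SMAD of TGF-beta and activin signalling, fell in all 4 arms. With siOGT1 it had 1.94 and 1.73 CPM under AT7519, against 6.01 and 5.54 CPM under DMSO (log2 -1.66 ± 0.19, SE; edgeR adjusted p = 6e-07). siOGT2 cells had 3.54 and 2.52 CPM under AT7519, against 7.03 and 5.88 CPM under DMSO (log2 -1.09 ± 0.18, SE; edgeR adjusted p = 5.2e-05). The groups stayed apart in both. OSMI2 cells had 3.97 and 4.71 CPM under AT7519, against 9.35 and 9.72 CPM under DMSO (log2 -1.14 ± 0.18, SE; edgeR adjusted p = 2e-05). Scr cells had 3.69 and 3.51 CPM under AT7519, against 8.92 and 7.83 CPM under DMSO (log2 -1.22 ± 0.18, SE; edgeR adjusted p = 1e-05). The response of siOGT1 cells differed from that of Scr cells by -0.44 ± 0.25 (SE), which did not pass (edgeR adjusted p = 0.95).

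Of the corepressors, TGIF1, which binds SMAD2 and SMAD3 on DNA and recruits histone deacetylases, had the largest log2 falls in every arm. With siOGT1 TGIF1 had 11.4 and 10.9 CPM under AT7519, against 34.8 and 37.6 CPM under DMSO (log2 -1.70 ± 0.12, SE; edgeR adjusted p = 1.6e-09). With siOGT2 it had 14.4 and 13.1 CPM under AT7519, against 39.6 and 40.9 CPM under DMSO (log2 -1.55 ± 0.12, SE; edgeR adjusted p = 4.7e-09). Both are about a 3-fold fall with tight replicates. In OSMI2 cells TGIF1 had 6.38 and 8.08 CPM under AT7519, against 37.9 and 38.4 CPM under DMSO, 5.33-fold lower (log2 -2.41 ± 0.12, SE; edgeR adjusted p = 2e-11). In Scr cells it had 13.7 and 11.7 CPM under AT7519, against 32.7 and 36.5 CPM under DMSO, 2.72-fold lower (log2 -1.44 ± 0.12, SE; edgeR adjusted p = 7.6e-09). The OSMI2 libraries given AT7519 were again the lowest of the 16, and the log2 response differed from that in Scr by -0.97 ± 0.17 (SE), given without a test.

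SKI, a proto-oncoprotein that holds SMAD complexes inactive, had the highest CPM of the 10 genes (not per kb) and the smallest of the falls that passed in each arm. With siOGT1 SKI had 93.9 and 97.9 CPM under AT7519, against 116 and 122 CPM under DMSO (log2 -0.31 ± 0.08, SE; edgeR adjusted p = 0.0021). siOGT2 cells had 68.9 and 74.1 CPM under AT7519, against 89.2 and 85.8 CPM under DMSO (log2 -0.29 ± 0.08, SE; edgeR adjusted p = 0.0036). With upper-quartile scaling these 2 falls did not pass, at edgeR adjusted p = 0.057 and 0.0514. In OSMI2 cells SKI had 49.6 and 47.7 CPM under AT7519, against 87.0 and 85.6 CPM under DMSO, 1.77-fold lower (log2 -0.83 ± 0.08, SE; edgeR adjusted p = 3.4e-08). In Scr cells it had 64.5 and 63.6 CPM under AT7519, against 86.8 and 81.9 CPM under DMSO, 1.32-fold lower (log2 -0.40 ± 0.08, SE; edgeR adjusted p = 0.00021). The OSMI2 response differed from that in Scr by -0.43 ± 0.11 (SE), given without a test, and the OSMI2 libraries given AT7519 had the 2 lowest SKI levels of the 16.

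SKIL, the SKI relative known as SnoN, fell in all 4 arms. Under AT7519 it had 11.6 and 11.0 CPM with siOGT1, 14.3 and 15.2 CPM with siOGT2, 18.4 and 16.5 CPM with OSMI2 and 16.2 and 15.0 CPM with Scr. Under DMSO it had 23.1 and 23.9 CPM with siOGT1, 24.6 and 25.8 CPM with siOGT2, 34.1 and 33.2 CPM with OSMI2 and 28.6 and 31.0 CPM with Scr. Each AT7519 library lay below every DMSO library. The log2 changes were -1.06 in siOGT1, -0.78 in siOGT2, -0.94 in OSMI2 and -0.93 in Scr (SE 0.10 each), with edgeR adjusted p between 1.3e-07 and 4.4e-06. The OSMI2 response differed from that of Scr by -0.01 ± 0.14 (SE).

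The ID genes encode proteins that bind basic helix-loop-helix factors and keep them off DNA, and they are the best known targets of BMP signalling. The 3 did not move together. ID2 fell in every arm, ID3 was higher under AT7519 in every arm, and ID1 did not pass in any. In ID1, ID2 and ID3 the replicates also differed in a shared way: replicate 2 was below replicate 1 in both OSMI2 groups, at 0.435 times under AT7519 and 0.487 times under DMSO for ID3, while in the 6 siRNA groups ID3 in replicate 2 was 1.10 to 1.82 times its level in replicate 1. For ID1 the OSMI2 ratios were 0.477 under AT7519 and 0.482 under DMSO, and for ID2 0.662 and 0.666, while the siRNA groups had 0.959 to 1.84 for ID1 and 0.829 to 1.44 for ID2. A replicate block fits 1 shared difference for all groups, so it cannot take up one that runs in opposite directions. The part of this replicate difference in the ID results was not tested.

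ID2 had 1.74 and 1.94 CPM under AT7519 with siOGT1, against 6.77 and 8.10 CPM under DMSO (log2 -2.00 ± 0.24, SE; edgeR adjusted p = 1.6e-06). siOGT2 cells had 2.95 and 3.35 CPM under AT7519, against 6.24 and 8.99 CPM under DMSO (log2 -1.27 ± 0.23, SE; edgeR adjusted p = 0.00017). In both the groups were apart. OSMI2 cells had 2.47 and 1.63 CPM under AT7519, against 8.91 and 5.93 CPM under DMSO (log2 -1.82 ± 0.24, SE; edgeR adjusted p = 3.8e-06). Scr cells had 3.41 and 2.83 CPM under AT7519, against 7.37 and 9.80 CPM under DMSO (log2 -1.46 ± 0.23, SE; edgeR adjusted p = 3.2e-05). ID2 shares 38 exonic bases, 1.72% of its exonic length, with ID2-AS1 on the opposite strand, which had 2013 counts over the 16 libraries beside 6310 for ID2. Whether the counting used strand is not stated, so reads in that stretch cannot be assigned.

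ID3 had 15.4 and 19.4 CPM under AT7519 with siOGT1, against 6.03 and 11.0 CPM under DMSO (log2 1.06 ± 0.50, SE), which did not pass (edgeR adjusted p = 0.12). With siOGT2 it had 29.3 and 32.2 CPM under AT7519, against 9.91 and 13.1 CPM under DMSO (log2 1.42 ± 0.50, SE; edgeR adjusted p = 0.0441). In OSMI2 cells ID3 had 48.9 and 21.3 CPM under AT7519, against 17.4 and 8.49 CPM under DMSO (log2 1.45 ± 0.49, SE; edgeR adjusted p = 0.0373). In Scr cells it had 28.8 and 37.5 CPM under AT7519, against 8.44 and 14.01 CPM under DMSO (log2 1.57 ± 0.49, SE; edgeR adjusted p = 0.0273). In each arm both AT7519 libraries lay above both DMSO libraries. The calls were close to the threshold: the rise in Scr did not pass in 5 of 23 alternatives, and those in siOGT2 and OSMI2 did not pass in 14 of 23 each. With the replicate block, the rises in siOGT2 and OSMI2 did not pass (edgeR adjusted p = 0.065 and 0.0549). Without Scr DMSO replicate 1 the log2 change in Scr was 1.24, and without OSMI2 AT7519 replicate 1 that in OSMI2 was 0.67. The latter sets replicate 2 alone against both DMSO replicates, and replicate 2 was the lower one in both OSMI2 groups.

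ID1 had the fewest counts of the 10 genes, 54 to 240 a library. It had 2.17 and 2.36 CPM under AT7519 with siOGT1, against 1.499 and 2.52 CPM under DMSO. In Scr cells it had 3.13 and 3.01 CPM under AT7519, against 1.26 and 2.31 CPM under DMSO, a log2 change of 0.80 ± 0.37 (SE; edgeR adjusted p = 0.083). That Scr change did pass with upper-quartile scaling, with DESeq2, with no low-count filter and without Scr DMSO replicate 2. The log2 changes of ID1 in siOGT1, siOGT2 and OSMI2 were 0.20, 0.24 and -0.07, with edgeR adjusted p of 0.69, 0.62 and 0.90, and their signs turned under other scalings.

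**Figure D2:**
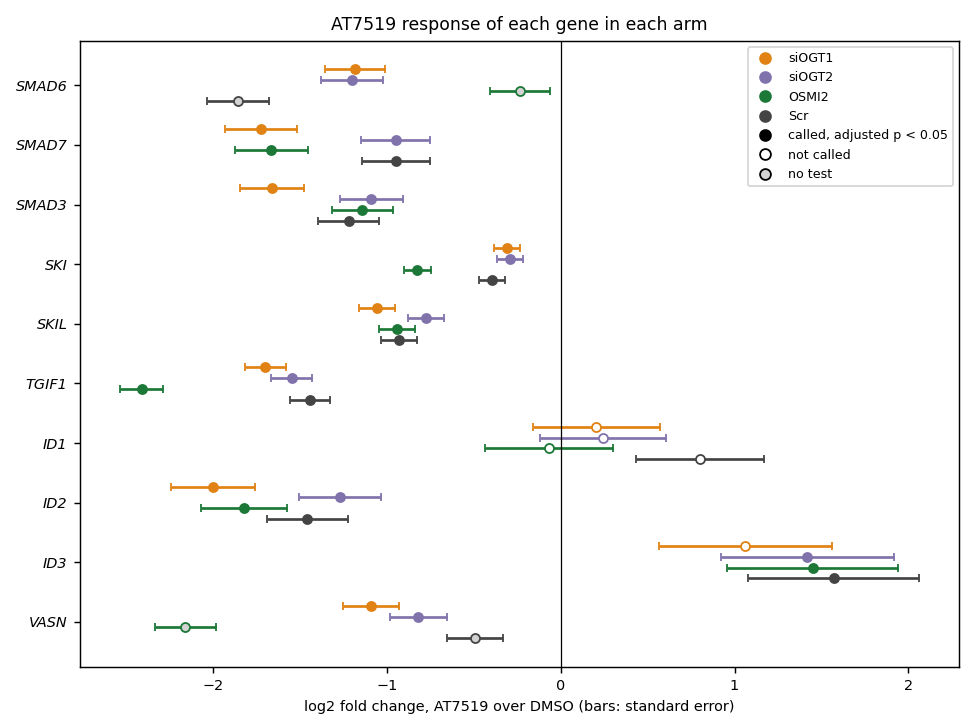
Log2 fold change of each gene under AT7519 over DMSO (horizontal axis) in each arm, with bars for the standard error, filled points for changes that passed at an edgeR adjusted p under 0.05, white points for those that did not and light grey points where no test is given. Of the 4 arms, SMAD6 is nearest 0 in OSMI2 cells, at -0.24, and VASN and TGIF1 are furthest below 0 there, at -2.16 and -2.41.

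OGT knockdown and OSMI2 were then compared with Scr under DMSO, to see the genes without the kinase inhibitor. With siOGT1, 3 of 8 tested genes passed, where 10.4% of all tested genes did. SKI rose, at 116 and 122 CPM with siOGT1 against 86.8 and 81.9 CPM with Scr (log2 0.50 ± 0.08, SE; edgeR adjusted p = 0.00025). SKIL fell, at 23.1 and 23.9 CPM with siOGT1 against 28.6 and 31.0 CPM with Scr (log2 -0.34 ± 0.10, SE; edgeR adjusted p = 0.0325). SMAD3 fell, at 6.01 and 5.54 CPM with siOGT1 against 8.92 and 7.83 CPM with Scr (log2 -0.54 ± 0.17, SE; edgeR adjusted p = 0.0479). The rise of SKI held in all 24 alternatives. The SKIL call was lost in 6, among them without either library of siOGT1 DMSO or Scr DMSO, and the SMAD3 call in 10, among them without any 1 of the 8 DMSO libraries.

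With siOGT2, 0 of 8 tested genes passed in edgeR, where 4.3% of all genes did, and 2 had an unadjusted p under 0.05. SKI had 89.2 and 85.8 CPM with siOGT2, against 86.8 and 81.9 CPM with Scr, so the groups overlapped. SKIL and SMAD3 had log2 differences of -0.24 ± 0.10 and -0.38 ± 0.17 (SE), with edgeR adjusted p of 0.216 and 0.265. With OSMI2, 0 of 8 passed in edgeR, where 2.98% of all genes did, and 0 had an unadjusted p under 0.05. DESeq2 also gave 0 of 8 in both. The 3 comparisons share the Scr libraries, and whether the siRNAs differ from each other was not tested.

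The responses to AT7519 were compared between arms by interaction terms. Each difference subtracts the same Scr response, so a sign shared by several arms is not independent. For siOGT1 against Scr, 0 of 8 tested genes passed in edgeR, where 0.0504% of all genes did, and 1 had an unadjusted p under 0.05. For siOGT2 against Scr, 0 of 8 passed in edgeR, where 0% of all genes did, and 0 had an unadjusted p under 0.05. DESeq2 gave 0 of 8 in both, with 118 and 3 genes called overall. The standard errors of these differences ran from 0.11 for SKI to 0.69 for ID3, so the limit was widest for ID1 and ID3. SMAD7 with siOGT1 did not pass either, at -0.77 ± 0.28 (SE; edgeR adjusted p = 0.62). With so few genes passing anywhere, 0 of 8 does not show that the responses were alike. With OSMI2, the 10 differences spread from 1.62 for SMAD6 to -1.67 for VASN. TGIF1 at -0.97, ID1 at -0.87, SMAD7 at -0.72 and SKI at -0.43 were on the side of VASN, and SMAD3 at 0.08, SKIL at -0.01 and ID3 at -0.12 were closer to 0. ID2 stood at -0.36. The values of the ID genes moved when 1 OSMI2 library was left out. Without OSMI2 AT7519 replicate 1 they were -1.60 for ID1, -0.79 for ID2 and -0.92 for ID3. Without OSMI2 DMSO replicate 1 they were -0.26, -0.05 and 0.48. Replicate 2 was below replicate 1 in both OSMI2 groups for these genes, so such a fit compares unlike replicates. With all libraries kept, other settings gave -0.94 to -0.84, -0.42 to -0.34 and -0.20 to -0.10.

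**Figure D3:**
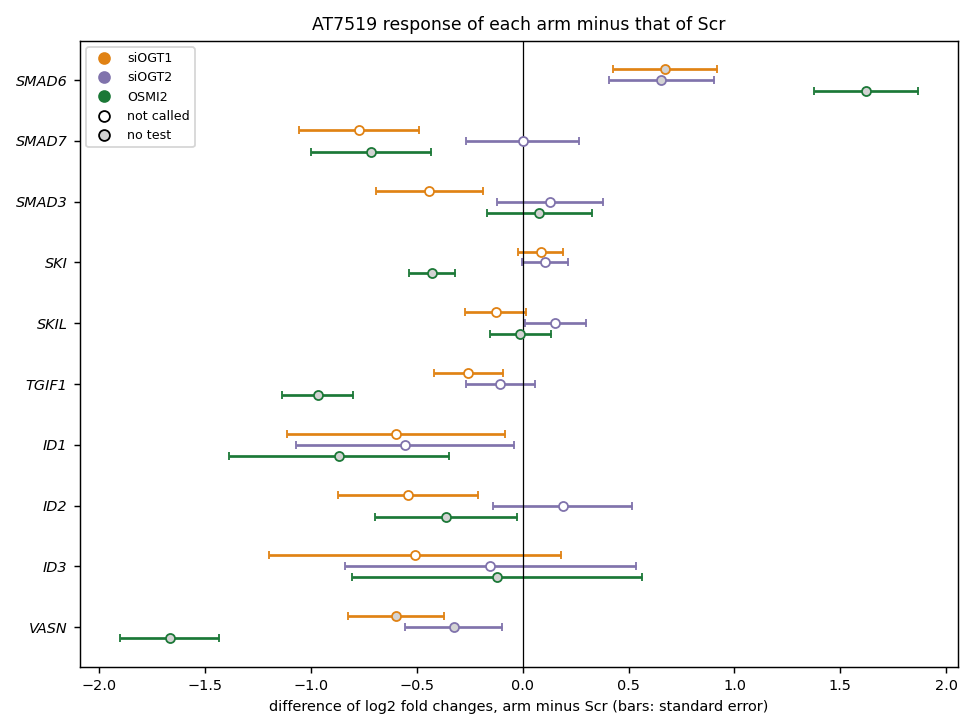
AT7519 response (log2 fold change) of siOGT1, siOGT2 and OSMI2 cells minus that of Scr cells for each gene (horizontal axis), with bars for the standard error, white points for differences that did not pass and light grey points where no test is given. SMAD6 lies to the right in all 3 arms, furthest with OSMI2 at 1.62, and VASN furthest to the left with OSMI2 at -1.67. The same Scr response is subtracted in all 3 arms.

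Across the 8 group means, the 5 genes whose log2 CPM followed SMAD6 most closely, among 9988 with a mean log2 CPM of at least 3, were NSMAF, MAST3, XRCC2, CCDC88C and RAPGEF5, with Pearson r of 0.978, 0.974, 0.971, 0.971 and 0.962. XRCC2 had a log2 CPM of 4.62 in OSMI2 cells with AT7519, against 4.06 in Scr cells with AT7519 and 5.50 in Scr cells with DMSO. RAPGEF5 had a log2 CPM of 3.33 in OSMI2 cells with AT7519 and 3.27 with DMSO. The 5 closest to VASN were AMBRA1, CAMSAP1, TOB2, ZNF71 and TSKU, with r of 0.988, 0.987, 0.987, 0.985 and 0.985. TOB2 had a log2 CPM of 3.83 in OSMI2 cells with AT7519, against 4.88 in Scr cells with AT7519 and 5.70 in Scr cells with DMSO. Among the 10 genes themselves, SMAD3 followed SKIL (r = 0.991) and SMAD7 followed ID2 (r = 0.989), while SMAD6 and VASN had r = 0.473. These are descriptions over 8 points that share the difference between AT7519 and DMSO.

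The other genes of the pathway were taken from 7 lists with 104 genes, of which 79 were tested. With AT7519, 41 fell and 9 rose in siOGT1 cells, 44 fell and 9 rose in siOGT2 cells, 46 fell and 10 rose in OSMI2 cells and 44 fell and 8 rose in Scr cells. Of all tested genes, 22% fell and 19.4% rose in siOGT1, 22.8% and 22.2% in siOGT2, 23.6% and 23.6% in OSMI2, and 24.6% and 21.8% in Scr, and the counts per list below stand against these shares. The median log2 change of the 79 was -0.62 in siOGT1, -0.68 in siOGT2, -0.70 in OSMI2 and -0.61 in Scr, beside -0.05, -0.03, 0.02 and -0.05 over all tested genes.

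All 5 other receptor-activated and common SMADs fell in every arm. In Scr cells SMAD5, a BMP SMAD, had 71.1 and 68.4 CPM under AT7519, against 125 and 125 CPM under DMSO (log2 -0.84 ± 0.07, SE; edgeR adjusted p = 1.9e-08). SMAD1, also a BMP SMAD, changed by log2 -1.06 ± 0.14 and SMAD4, the partner common to both branches, by -0.41 ± 0.09 (SE). Of 15 receptors and co-receptors, 7 fell in siOGT1, 8 in siOGT2, 12 in OSMI2 and 11 in Scr, and the rest did not pass, where 22%, 22.8%, 23.6% and 24.6% of all genes fell. ACVR2B, a type II activin receptor, had 5.32 and 5.29 CPM under AT7519 in Scr, against 14.3 and 15.3 CPM under DMSO (log2 -1.48 ± 0.14, SE; edgeR adjusted p = 3.8e-08). ACVR1B and BMPR1A, type I receptors for activin and BMP, changed by log2 -0.92 and -0.73 in Scr (SE 0.09 each).

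Of 18 intracellular regulators, 11 fell and 3 rose in Scr cells, where 24.6% of all genes fell and 21.8% rose, so the rises were below that share. Those that fell included RNF111, a ubiquitin ligase that degrades SKI, SKIL and SMAD7 (log2 -1.04 ± 0.12, SE), SMURF2, a ubiquitin ligase that SMAD7 brings to receptors (log2 -0.98 ± 0.12, SE), and TGIF2, the TGIF1 relative (log2 -1.24 ± 0.15, SE). LEMD3, an inner nuclear membrane protein that binds receptor-activated SMADs, changed by log2 -1.57 ± 0.11 in OSMI2 cells and -1.08 ± 0.11 (SE) in Scr cells. Of 16 other target genes, 10 fell and 2 rose in Scr, against the same shares. BHLHE40, a repressor of transcription, had 7.07 and 5.31 CPM under AT7519 in Scr, against 17.4 and 19.4 CPM under DMSO (log2 -1.58 ± 0.19, SE; edgeR adjusted p = 9.1e-07). MSX1, a homeobox target of BMP, changed by log2 -1.67 ± 0.22, and RUNX2 by -1.42 ± 0.19 (SE).

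The secreted proteins were mixed. Of 8 TGF-beta and activin ligands, 3 fell and 1 rose in Scr, where 24.6% of all genes fell and 21.8% rose. Among the falls, NODAL was lost in 2 of 24 alternatives and INHBE in 5, all but 2 of these 7 by leaving out a Scr library. GDF15, a stress-induced member of the family, rose in Scr, at 597 and 541 CPM under AT7519 against 337 and 255 CPM under DMSO (log2 0.94 ± 0.16, SE; edgeR adjusted p = 0.00023). GDF15 also rose by log2 0.71 with siOGT1 and 0.59 with siOGT2 (SE 0.16 each), with edgeR adjusted p of 0.0024 and 0.0075. In OSMI2 cells its log2 change was 0.12 ± 0.16 (SE; edgeR adjusted p = 0.56). The OSMI2 means were 424 CPM under DMSO and 462 CPM under AT7519, against 296 and 569 CPM in Scr. Under DMSO the difference of OSMI2 from Scr was log2 0.52 ± 0.16 (SE), which did not pass (edgeR adjusted p = 0.103). Whether the AT7519 response of GDF15 differed between OSMI2 and Scr was not tested. Of 5 BMP ligands, 2 fell in Scr, and both calls were lost when a Scr library was left out. BMP4 had 0.0371 and 0.0295 CPM under AT7519 in Scr, against 0.442 and 0.139 CPM under DMSO. Of 12 extracellular antagonists and latency proteins, 2 fell and 2 rose in Scr, both below the shares of 24.6% and 21.8% over all genes. With OSMI2 1 fell and 5 rose, where 23.6% of all genes fell and 23.6% rose. With siOGT1 2 fell and 3 rose, and with siOGT2 3 fell and 3 rose. In Scr, FSTL3, a secreted activin antagonist, stood at log2 -0.95 ± 0.16 and LTBP3, which binds latent TGF-beta, at 0.45 ± 0.10 (SE). The calls of LTBP3 and TWSG1, the 2 that rose in Scr, were lost when libraries were scaled by size alone.

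**Figure D4:**
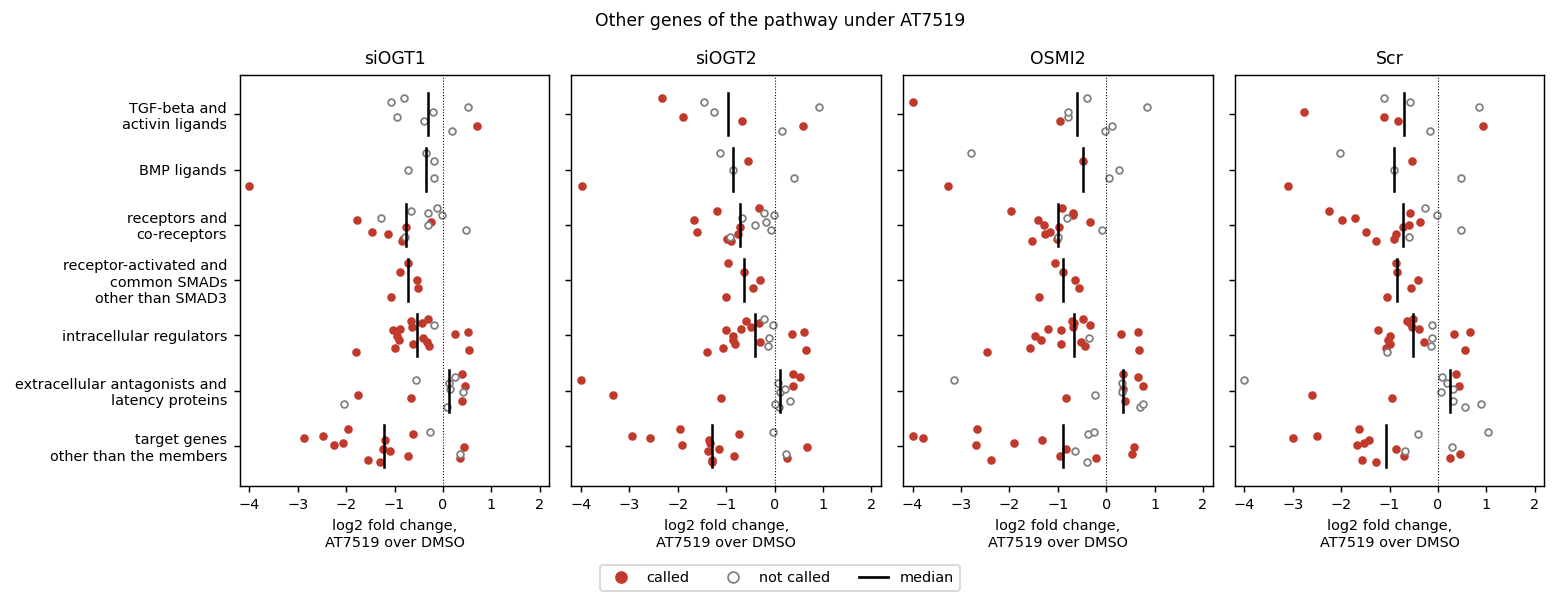
Log2 fold change under AT7519 over DMSO (horizontal axes) of the 79 other pathway genes that were tested, by list (rows) and arm (panels), with red points for changes that passed at an edgeR adjusted p under 0.05, open grey points for the rest and a black line at each list's median. Values below -4 are drawn at -4. The 5 SMADs lie left of 0 in every arm, while the antagonists and latency proteins lie on both sides of it.

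Under DMSO, 13 of the 79 fell and 1 rose with siOGT1, 3 fell with siOGT2 and 2 fell with OSMI2, each against Scr, where 10.4%, 4.3% and 2.98% of all tested genes passed. The counts for siOGT2 and OSMI2 are near the shares over all genes and are no result about the pathway. The 3 that fell with siOGT2 were TGFBR2, ACVR2B and TGIF2, and the 2 with OSMI2 were STRAP and USP15, all named after their values were seen. TGFBR2, the type II TGF-beta receptor, had 0.481 and 0.485 CPM with siOGT1 and 0.459 and 0.380 CPM with siOGT2, against 1.66 and 1.14 CPM with Scr. Its log2 differences were -1.54 ± 0.33 with siOGT1 and -1.74 ± 0.35 with siOGT2 (SE), with edgeR adjusted p of 0.0046 and 0.0065. Both were lost without Scr DMSO replicate 1, with adjusted p of 0.111 for siOGT1 and 0.119 for siOGT2. The siOGT1 call was also lost without siOGT1 DMSO replicate 1 (0.0547) or replicate 2 (0.0575), and the siOGT2 call without siOGT2 DMSO replicate 2 (0.122). The other 4 calls lay near the threshold and were lost in 4 to 18 of 24 alternatives.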

How the data were processed

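Total RNA of LNCaP cells was measured in 16 libraries made with a strand-specific kit, per the labels' protocols. The deposited table holds whole-number counts per gene and library, made with STAR, HTSeq and DESeq2 on hg19 (GRCh37) per the submitters' processing notes, which give no versions. A second deposited table of normalized values was not used here. The 10 genes and all lists were chosen with earlier results of these data known.

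Counts were analysed with edgeR 4.0.16 in R 4.3.3: filterByExpr on the 8 groups kept 23830 of 60252 genes, libraries were scaled by TMM, 1 mean per group was fitted (8 residual degrees of freedom) and contrasts were tested with glmQLFTest, two-sided, adjusted over all tested genes by Benjamini-Hochberg. Standard errors are the absolute log2 change over the square root of F. CPM are TMM-scaled. Comparisons were AT7519 against DMSO in each arm, each arm against Scr under DMSO, and interactions. Beyond the 10 genes, the text names OGT, markers, up to 4 genes per list with the smallest adjusted p in Scr, the 5 genes closest to SMAD6 and to VASN over group means of log2 CPM (prior count 2), and overlapping genes; TGFBR2, STRAP and USP15 fall outside this rule and were chosen after their values were seen. Exon lengths and overlaps come from GENCODE 29 and promoters from RefSeq GRCh38.p14. The counts are on GRCh37, so the only coordinates given are those of the SMAD6 and VASN promoter windows, on GRCh38.p14. Of the IDs, 55528 had a symbol. Alternatives were scaling by RLE, by upper quartile or by library size alone, DESeq2 1.42.0, no filter, replicate blocks and leaving out each library. Total counts were 40216911 to 147019364 a library. Counts cover reads, not molecules. Some markers of the cell line are not reported here.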

Additional observations from a re-analysis of the deposited data

How the results depend on the processing

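Alternatives were run for the 10 genes in every comparison, for the named list genes in Scr, and for OGT, OGA and the named receptors and regulators under DMSO, and none of these changes that passed reversed its sign. The AT7519 falls of SMAD3, SMAD7, ID2, SKIL and TGIF1 in all arms, and of SMAD6 and VASN in siOGT1 and siOGT2, passed under every alternative, and upper-quartile scaling ended those of SKI in siOGT1 and siOGT2. Scaling moved the median log2 change of all genes under AT7519: with upper-quartile scaling it was 0.09 in siOGT1, 0.07 in siOGT2, 0.20 in OSMI2 and 0.10 in Scr, and with library size alone -0.27, -0.30, -0.22 and -0.30. The share of calls that were higher was 59.1%, 57.8%, 62.1% and 58.7% with upper-quartile scaling and 25.5%, 26.1%, 29.2% and 26.9% with library size alone, against 46.9%, 49.2%, 50.1% and 47% in the main result.

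Of the 8 genes tested for siOGT1 against Scr, 1 passed with library size alone, against 3. All genes called for siOGT1 against Scr (2479) numbered 4387 with the replicate block within agent. For siOGT2 against Scr (1025) they numbered 1586 with DESeq2, 1605 with the replicate block and 2574 with the block within agent. For OSMI2 against Scr (710) they numbered 378 with upper-quartile scaling, 390 with library size alone, 1420 with DESeq2, 1224 with the replicate block and 2391 with the block within agent. For the siOGT1 interaction (12) they numbered 20 with library size alone, 118 with DESeq2, 100 with no filter, 34 with the replicate block and 218 with the block within agent. For the siOGT2 interaction (0) they numbered 3 with DESeq2, 8 with no filter and 6 with the block within agent.

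Leaving out each library in turn gave 8 to 8 genes called of the 10 under AT7519 in siOGT1, 8 to 9 in siOGT2, 6 to 7 in OSMI2 and 6 to 8 in Scr, and 1 to 3 for siOGT1 against Scr, where leaving out any DMSO library of siOGT1 or Scr gave 1. It gave 0 to 0 in the other comparisons. All genes called ranged from 7441 to 10248 in siOGT1, 8432 to 10959 in siOGT2, 8915 to 11467 in OSMI2 and 8845 to 11422 in Scr, and pathway genes from 39 to 51, 41 to 54, 48 to 58 and 40 to 54. Against Scr they ranged from 776 (without siOGT1 DMSO replicate 2) to 2845 for siOGT1, 182 (without siOGT2 DMSO replicate 2) to 1247 for siOGT2 and 9 (without Scr DMSO replicate 2) to 777 for OSMI2. They ranged from 3 to 25 for the siOGT1 interaction and 0 to 2 for the siOGT2 interaction. SMAD6 and VASN had no test in any comparison that holds a Scr or OSMI2 library, so there the counts of the 10 genes come from 8 tested genes. The cause of these shifts was not tested.

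Same-numbered replicates shared only a number in the labels. Their deviations correlated with r of 0.603 to 0.734 between siRNA arms given the same agent, 0.0473 to 0.178 between OSMI2 and those arms, and -0.135 to 0.434 between AT7519 and DMSO of 1 arm. A crossed pairing, chosen after seeing the data, gave 1282 calls for OSMI2 against Scr and 38 for the siOGT1 interaction. ID1 had 54 to 240 counts a library. With 2 replicates a group, small changes were not detectable in genes whose replicates lay far apart, such as ID1 and ID3.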
